A study of Homo sapiens with 15 samples.

Results

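In MDA-MB-231, a human line of triple-negative breast cancer, 62195 regions carrying acetylated lysine 27 of histone H3 (H3K27ac) were compared between the brain-tropic sub-population BrM2 and the parental line (Par). These were all the H3K27ac consensus peaks, out of 84767 peaks of H3K27ac and H3K4me3 together. Each peak was assigned to the protein-coding gene with the nearest transcript start in GENCODE release 44 on hg19 (GRCh37). BrM2 and Par had 2 libraries each, and 2 libraries of the lung-tropic sub-population LM2 entered the same fit. The series held 15 samples, of which 12 were libraries of a histone mark and 3 were input samples that were not analysed here. Per the labels, cells of all lines grew in 10% serum for 3 days and were fixed with 1% formaldehyde for 10 min, with no other agent named. BrM2 and LM2 are each 1 derived line, so a difference from Par is a difference between lines, not between metastases.

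H3K27ac is written by the acetyltransferases p300 and CBP at active promoters and enhancers, and H3K4me3 marks active promoters. A peak of H3K27ac far from any transcript start is therefore commonly read as a candidate enhancer. Genes that define cell identity often have many such elements over long stretches of DNA, and genes of neuronal adhesion are among the longest in the genome. Peaks are called elements in what follows. Assignment by distance does not measure contact with a promoter, and RNA was not measured in these libraries.

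The H3K27ac libraries held 1994996 counts in peaks (BrM2 replicate 2) to 6450028 (LM2 replicate 1). Log2 CPM (counts scaled to library size) correlated over peaks with r = 0.945 between the Par replicates, 0.944 between the BrM2 replicates, and 0.876 to 0.901 between Par and BrM2 libraries. Promoter elements of VIM, CD44, AXL, EGFR and MSN, genes typical of this mesenchymal-like line, were present and not called. PGR, RBFOX3, AQP4, PTPRC, CD3E and PECAM1, defining genes of other cell types, had no promoter element. ESR1, GATA3, FOXA1, KRT8, EPCAM, SYP, TUBB3, GFAP and CDH5 had one, and none was called.

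Sequences of elements that carry the results are given on the plus strand of GRCh37. MSI2 had several elements changed, all higher in BrM2, and ETS1 several, all lower in BrM2. The central 300 bases of the strongest elements at MSI2 and ETS1 are therefore shown whole. They held 59.7% and 33% G and C, and neither window has the letters of the 6 motifs searched below.
MSI2, chr17:55520353-55520652: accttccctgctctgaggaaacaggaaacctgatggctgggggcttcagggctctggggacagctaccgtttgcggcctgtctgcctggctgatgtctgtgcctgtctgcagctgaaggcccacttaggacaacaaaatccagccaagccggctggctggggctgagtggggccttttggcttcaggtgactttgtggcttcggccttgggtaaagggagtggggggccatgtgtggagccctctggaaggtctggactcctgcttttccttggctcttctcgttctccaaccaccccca
ETS1, chr11:128004466-128004765: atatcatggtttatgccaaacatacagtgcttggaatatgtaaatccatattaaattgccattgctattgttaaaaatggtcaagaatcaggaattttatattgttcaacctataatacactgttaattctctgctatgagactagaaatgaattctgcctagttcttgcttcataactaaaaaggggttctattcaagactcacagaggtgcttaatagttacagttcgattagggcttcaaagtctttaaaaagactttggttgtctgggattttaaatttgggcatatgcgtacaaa

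Shorter windows show where motif letters stand in some of the elements that rose or fell most, with 50 bases on each side. They were chosen after the motif shares were seen. In elements that rose, capitals mark TGANTCA, the letters bound by AP-1 (FOS and JUN proteins).
PCBP3, chr21:47303096-47303202: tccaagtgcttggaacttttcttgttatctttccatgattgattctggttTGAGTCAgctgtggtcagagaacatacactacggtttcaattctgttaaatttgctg
MSI2, chr17:55520827-55520933: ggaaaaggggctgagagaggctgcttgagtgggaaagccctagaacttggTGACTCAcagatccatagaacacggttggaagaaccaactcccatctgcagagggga
PIEZO2, chr18:10926090-10926196: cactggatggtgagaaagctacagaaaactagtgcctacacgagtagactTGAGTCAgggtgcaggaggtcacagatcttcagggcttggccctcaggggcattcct
In elements that fell, capitals mark TGTGGTT or its reverse complement, letters bound by RUNX factors.
ACTR3C, chr7:150006615-150006721: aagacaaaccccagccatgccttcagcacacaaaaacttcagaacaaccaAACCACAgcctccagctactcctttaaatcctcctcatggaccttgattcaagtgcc
SLC30A10, chr1:219965509-219965615: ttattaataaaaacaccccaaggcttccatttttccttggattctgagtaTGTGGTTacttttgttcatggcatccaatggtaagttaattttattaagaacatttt
SLCO3A1, chr15:92409688-92409794: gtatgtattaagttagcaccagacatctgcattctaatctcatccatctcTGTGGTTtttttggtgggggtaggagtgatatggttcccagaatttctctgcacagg
RBM47, chr4:40675159-40675265: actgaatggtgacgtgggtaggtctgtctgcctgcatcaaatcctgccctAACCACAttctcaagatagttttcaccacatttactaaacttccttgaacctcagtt
Windows were taken only from elements with such a match, so the elements of DRD2 and ETS1, which fell, were passed over for want of a usable one. At least 1 AP-1 match where elements rose and 1 RUNX match where they fell was thus fixed in advance. The counts below therefore cannot show whether letters differ by direction. Over their whole length the 3 elements that rose held AP-1 letters 7, 3 and 2 times and RUNX letters 3, 0 and 2 times. The element with the smallest adjusted p, at NFILZ, also rose and is not shown. It held AP-1 letters 1 time and RUNX letters 3 times. The 4 that fell held AP-1 letters 4, 14, 2 and 4 times and RUNX letters 3, 5, 1 and 1 times.

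More elements gained than lost H3K27ac in BrM2, and those gained were mostly weak in Par. Of 51342 elements with an adjusted p, 1859 were higher in BrM2 than in Par and 856 were lower at an adjusted p under 0.05 (DESeq2 Wald test, Benjamini-Hochberg), or 3.62% and 1.67%, together 5.29%. Such elements are said below to be called, or to be higher or lower. The median of the mean normalized count rose from 15.5 in Par to 69.8 in BrM2 among those higher, and fell from 105 to 35.7 among those lower. Their median log2 fold changes were 2.06 and -1.56, against -0.01 over all tested elements. All 1859 and all 856 had groups of libraries that did not overlap. Calling an element at this threshold nearly requires that, so it is no separate evidence. The share without overlap over all tested elements was not computed. At 238 elements higher, both Par libraries had 3 counts or fewer, as had both BrM2 libraries at 33 elements lower. Setting these to the bound that 3 counts per library allow gave medians of 2.06 and -1.56.

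The numbers depended on single libraries. Without BrM2 replicate 1, which leaves only the shallowest library of the 6 for BrM2, 446 elements were higher and 71 lower. Without BrM2 replicate 2 they numbered 700 and 193, without Par replicate 1 772 and 195, and without Par replicate 2 712 and 246. With the replicate number as a block 2515 were higher and 1462 lower.

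**Figure D1:**
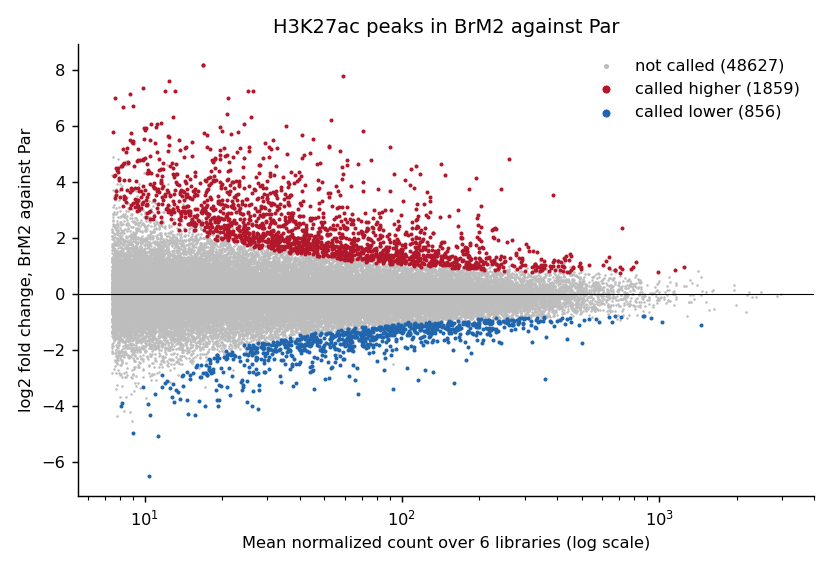
Log2 fold change of BrM2 against Par (vertical axis) against the mean normalized count over 6 libraries (horizontal axis, log scale), 1 point for each of the 51342 tested H3K27ac elements. The 1859 elements called higher (red) reach larger folds than the 856 called lower (blue).

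Elements higher in BrM2 lay far from transcript starts. Their median distance was 52.9 kb, against 24.2 kb for elements lower and 17.1 kb for all tested ones. Intergenic elements were 51.2% of those higher, 41.9% of those lower and 35.2% of all, and an H3K4me3 peak overlapped 24.9%, 34.1% and 36.2%. Where a start lay in the element, 1.14% were higher (144 of 12579, Wilson 95% interval 0.973 to 1.35) and 1.49% lower. Beyond 200 kb, 9.56% were higher (437 of 4572, interval 8.74 to 10.4) and 2.36% lower. The intervals cover counting error over elements, which are not independent replicates.

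**Figure D2:**
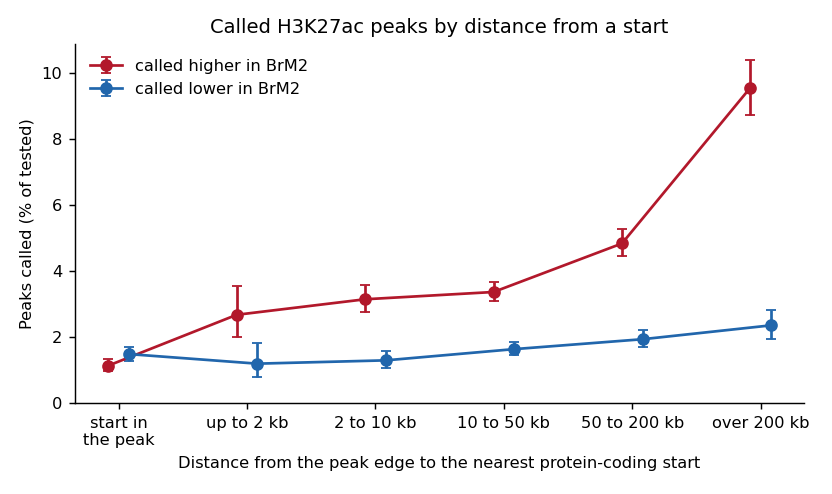
Percent of tested H3K27ac elements called higher (red) or lower (blue) in BrM2 than in Par, by distance from the edge of the element to the nearest protein-coding start, with Wilson 95% intervals. The share higher goes from 1.14% with a start in the element to 9.56% beyond 200 kb.

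Long elements were called lower more often than short ones. Of elements under 1 kb, 2.57% were higher and 0.156% lower, and of those over 10 kb, 4.63% were higher and 4.31% lower. Long elements collect more reads, and the part of depth in this difference was not tested. RUNX letters stood in the central 300 bases of 9.46% of elements lower, 5.97% of those higher and 5.73% of all tested ones. AP-1 letters were in 17.2% of elements lower, 16.2% of those higher and 15% of all. In the same order, CATTCCA, bound by TEAD factors, was in 6.54%, 7.32% and 5.73%, and CCGGAAG, bound by ETS factors, in 2.1%, 1.94% and 3.32%. ACAATGG, bound by SOX factors, was in 3.27%, 3.55% and 3.24%, and the E-box CACGTG in 3.97%, 3.17% and 4.13%. Over 2 kb from a start the shares of elements lower, higher and all were 11%, 6.12% and 6.67% for RUNX, 19.4%, 17.3% and 18.2% for AP-1 and 7.1%, 7.43% and 6.64% for TEAD letters. There they were 1.7%, 1.62% and 1.54% for ETS and 3.24%, 3.66% and 3.69% for SOX letters. For E-box letters they were 4.17%, 3.06% and 3.58%. The AP-1 shares of called elements were thus close to that of all distal ones, and ETS letters were no rarer in called elements. None of these shares was tested against that of all elements. Both strands were searched, and these shares describe letters, not bound sites.

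Some genes had several elements called. Of 14776 genes with an element, 1168 had at least 1 higher and 626 at least 1 lower. At 484 genes there were 2 or more calls, all higher at 324, all lower at 119 and in both directions at 41. Of the genes, 142 had 3 or more elements higher and 47 had 3 or more lower, and these held 34.5% of the elements higher and 23% of those lower. The median number of elements was 13 at the former and 13 at the latter genes, against 2 over all genes, and the part of element number in these counts was not tested. At least 5 were higher at 48 genes and lower at 12. Every tested element was above 0 at 76 of the 142 genes, and below 0 at 29 of the 47. These genes were chosen by their calls in that direction, and the smallest had 3 and 4 elements in all. The numbers are thus partly fixed by the choice, and the share over other genes was not computed.

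Many of the genes with elements lower lay on chromosome X, and some on chromosome 8. Of the 47, 15 lay on chromosome X and 5 on chromosome 8, against 4 and 9 of the 142 with elements higher. On X 11.8% of tested elements were lower and 2.5% higher, with a median log2 fold change of -0.47. On chromosome 18 12.3% were higher and 0.109% lower, with a median of 0.48. H3K4me3 medians of chromosomes X and 18 were -0.23 and 0.34. Chromosome 8 as a whole did not resemble X, with 3.15% of elements lower, 3.78% higher and a median of 0.07. Of elements on chromosomes 7 and 9, 3.3% and 3.2% were lower, with medians of -0.27 and -0.33. The median of each 5 Mb window can include a gene's own elements. After it was removed, 85 of the 142 genes still had 3 or more elements higher, and 5 of the 47 still had 3 or more lower. Copy number was not measured here and its part in the calls was not tested.

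**Figure D3:**
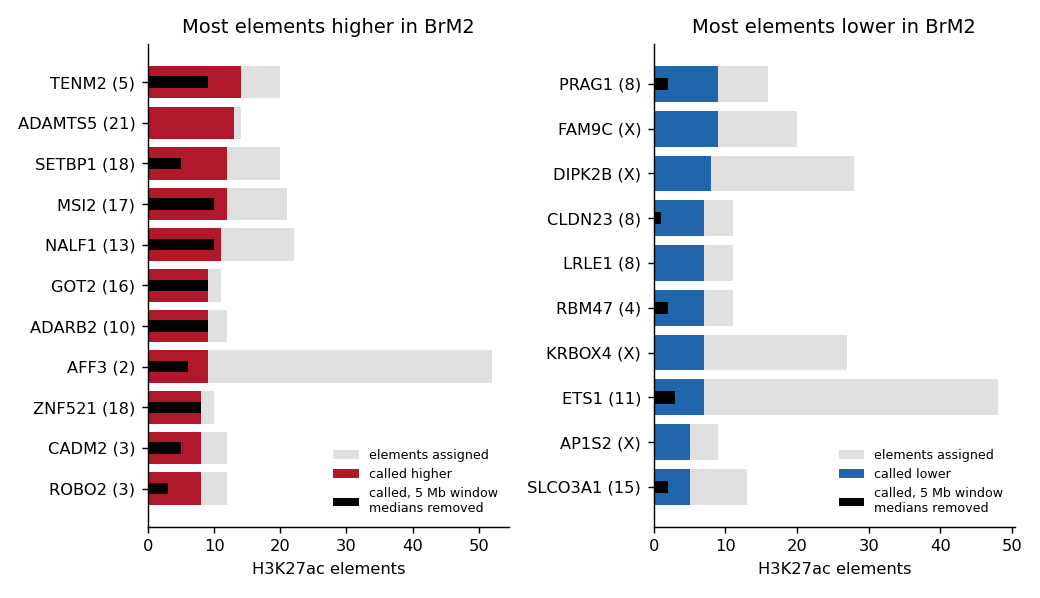
Number of H3K27ac elements (horizontal axis) at 11 of the 12 genes with most elements called higher (left) and the 10 with most called lower (right), with the chromosome in brackets. Grey bars are elements assigned, coloured bars elements called, and black bars elements called after 5 Mb medians were removed, which are 10 of 12 at MSI2, 0 of 13 at ADAMTS5 and at most 3 at any gene on the right.

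Among genes of adhesion and guidance, TENM2, CADM2 and ROBO2 had most elements higher. TENM2 encodes teneurin-2, a transmembrane protein that binds latrophilins across the synapse. Summed over its 20 elements, normalized counts were 372 and 254 in Par, 1527 and 1415 in BrM2, and 620.5 and 472 in LM2. BrM2 was highest and Par lowest, without overlap. Of the 20, 14 were higher, spread over 2786 kb. Of these, 7 lay in the gene and the others upstream, centred at -1655 to -1355 kb from its first base. The median log2 fold change of the 14 was 4.14, or 3.15 with 4 elements at their bound. That of LM2 against the same Par libraries was 0.91, with 2 of the 14 higher in LM2. This comparison called 3.63% of its tested elements (2.72% higher). Tested directly, 7 of the 14 were higher in BrM2 than in LM2, where 1.71% of all tested elements were. Called elements were chosen by their difference from Par in the same BrM2 libraries. A larger share differing from LM2 is therefore not independent evidence, here or at the genes below. With 1 library left out, 6 to 12 of the 14 were called.

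The strongest TENM2 element (chr5:167240090-167243860) lay in an intron. Its normalized counts were 7.84 and 4.01 in Par, 132 and 148 in BrM2, and 28.6 and 30.6 in LM2. The lines did not overlap, with LM2 between the others. BrM2 differed from Par by 4.54 (SE 0.55, adjusted p 1.99e-13) on the log2 scale and from LM2 by 2.24 (SE 0.40, adjusted p 1.4e-05). A small H3K4me3 peak at a TENM2 start had 0 and 0.771 in Par, 22.4 and 29.9 in BrM2, and 4.57 and 6.35 in LM2, and was higher in BrM2 (DESeq2 adjusted p 0.0129), a call lost without either Par library or BrM2 replicate 1. Of all tested H3K4me3 peaks 2.82% were higher and 0.791% lower in BrM2.

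CADM2, an immunoglobulin adhesion molecule of neurons, had 8 of 12 elements higher, all outside the gene and 358 to 1024 kb from its nearest start. The strongest (chr3:84289305-84291404) had 3.48 and 0 in Par, 149 and 129 in BrM2, and 21.3 and 14.8 in LM2. BrM2 was high and Par near 0. The log2 fold change was 6.24 (SE 0.83, adjusted p 4.51e-11) against Par, or 5.32 to 9.57 with 1 library left out, the highest without Par replicate 1, and 2.92 (SE 0.45, adjusted p 8.22e-08) against LM2. The median of its 5 Mb window was 1.40, and 5 of the 8 were called once it was removed. Promoter H3K4me3 was 93.7 and 118 in Par, 298 and 379.7 in BrM2, and 114 and 163 in LM2. BrM2 was above both other lines, with a log2 fold change against Par of 1.67 (SE 0.38, adjusted p 0.000763), a call lost without Par replicate 1 or BrM2 replicate 2.

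ROBO2, a receptor for Slit guidance proteins, had 8 of 12 elements higher, 7 of them in the gene. The strongest (chr3:77503122-77505879, intron) had 12.2 and 5.01 in Par, 116 and 108 in BrM2, and 51 and 47.3 in LM2. LM2 lay between the others without overlap. BrM2 was above Par by 3.68 (SE 0.51, adjusted p 3.56e-10), and above LM2 by 1.19 (SE 0.40, adjusted p 0.0821), with an adjusted p of 0.0354 with the replicate block. With 5 Mb medians removed the difference from LM2 was -0.00951 and was not called. At a ROBO2 start H3K4me3 was 18.4 and 26.2 in Par, 294 and 248 in BrM2, and 162 and 135 in LM2. It rose by 3.55 (SE 0.43, adjusted p 1.79e-13) in BrM2. With the window median of 1.91 removed, 3 of the 8 elements were called.

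Genes of adhesion between neurons and between epithelial cells were examined as a list of 33 genes, 27 of them with an element. The list was drawn up with earlier results of these data known, so its count is not independent evidence. Of 223 tested elements 76 were higher (34.1%, against 3.62% of all) and 0 lower, where DESeq2 had 4 lower at an unadjusted p under 0.05 and edgeR called 1. The elements higher belonged to 19 genes, and 15 of these had 2 or more. The median log2 fold change of the 223 was 0.58. Summed normalized counts over all 290 elements were 8576 and 7624 in Par, 14371 and 13564 in BrM2, and 11495 and 11365 in LM2. The lines did not overlap, and LM2 lay between the others. With 1 library left out, 34 to 70 were higher, the fewest without BrM2 replicate 1.

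Of the type II cadherins on the list with a call, CDH9 had 7 of 11 elements higher, CDH10 4 of 8, CDH11 3 of 18, CDH12 2 of 3, CDH18 2 of 4, CDH19 2 of 2 and CDH6 1 of 9. The classical cadherin CDH4 had 3 of 13. CDH1 and CDH2, E-cadherin and N-cadherin, had no call. NRXN3 is a neurexin, a presynaptic partner of neuroligins. All 5 elements of NRXN3 were higher, 3 of them also than in LM2. The strongest (chr14:80047603-80053406, intron) had 8.71 and 14 in Par, 279.8 and 262 in BrM2, and 61.7 and 52.2 in LM2. It was 4.59 (SE 0.43, adjusted p 1.29e-22) above Par on the log2 scale and 2.24 (SE 0.34, adjusted p 3.33e-08) above LM2. Its window median was 2.94, and with that removed it stayed higher, by 1.65 (adjusted p 0.0129).

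KIRREL3, an immunoglobulin protein of synapses, had 5 of 11 elements higher, and all 5 also exceeded LM2. The strongest had 6.97 and 5.01 in Par, 96.5 and 127 in BrM2, and 3.93 and 2.96 in LM2. Here the BrM2 libraries alone were high. DSCAM, a homophilic adhesion molecule of neurites, had all 4 elements higher than in Par and than in LM2, with summed counts of 63.6 and 46.1 in Par, 263 and 285 in BrM2, and 64 and 47.3 in LM2. Par and LM2 overlapped. TENM3, another teneurin, had 5 of 64 higher with a median of 1.42, and CNTNAP2, a neurexin-like protein, 2 of 4.

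ZNF521, a zinc finger cofactor, had 8 of 10 elements higher, 6 of them in the gene. The strongest (chr18:22827428-22833942, intron) had 23.5 and 14 in Par, 289.6 and 233 in BrM2, and 58.9 and 52.2 in LM2. BrM2 stood above both other lines, by 3.79 (SE 0.39, adjusted p 2.78e-18) against Par and 2.23 (SE 0.34, adjusted p 1.08e-07) against LM2. Promoter H3K4me3 was 246 and 214 in Par, 714 and 536 in BrM2, and 346 and 296 in LM2. It rose by 1.44 (SE 0.33, adjusted p 0.00114) in BrM2, a call lost without Par replicate 2 or BrM2 replicate 1.

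AFF3, a nuclear protein of the AF4 family in elongation complexes, had 9 of 52 elements higher, 6 of them also than in LM2. The strongest (chr2:100720618-100722491) held a transcript start and had 21.8 and 21 in Par, 133 and 218 in BrM2, and 52.2 and 72 in LM2. BrM2 did not overlap the others. The log2 fold change was 3.02 (SE 0.42, adjusted p 6.54e-10) against Par and 1.49 (SE 0.38, adjusted p 0.0069) against LM2, the latter with an adjusted p of 0.121 once 5 Mb medians were removed. At the same start H3K4me3 was 18.4 and 12.3 in Par, 418 and 447 in BrM2, and 265 and 262 in LM2. It rose by 4.89 (SE 0.44, adjusted p 3.38e-24) in BrM2, and LM2 was also above Par. Over all tested AFF3 elements the median was 0.53, with 30 of 44 above 0.

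SETBP1, which binds the SET protein, had 12 of 20 elements higher within 122 kb. Summed counts were 71.4 and 91.1 in Par, 599 and 601 in BrM2, and 319 and 306 in LM2. LM2 lay between Par and BrM2. The strongest (chr18:42310631-42315090, intron) had 20.9 and 13 in Par, 103 and 118 in BrM2, and 53.9 and 67 in LM2, with a log2 fold change of 2.69 (SE 0.44, adjusted p 3.91e-07) against Par and 0.87 (SE 0.39, adjusted p 0.264) against LM2. Both Par libraries held 3 counts or fewer at 7 of the 12, so the median of 3.64 becomes 2.82 at the bound. Without Par replicate 1, 1 of the 12 was called, and with the window median of 0.64 removed 5 were. SOX6, a factor of neural and cartilage development, had 5 of 9 higher with a median of 2.99.

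MSI2, the RNA-binding protein Musashi-2 of stem and progenitor cells, had 12 of 21 elements higher, 11 of them in the gene. Summed counts were 194 and 178 in Par, 1306 and 1201 in BrM2, and 1205 and 1269.5 in LM2. BrM2 and LM2 overlapped and both were far above Par. The strongest (chr17:55517124-55523880, intron) had 20.04 and 13 in Par, 308 and 279.5 in BrM2, and 274 and 265 in LM2. Its log2 fold change was 4.14 (SE 0.37, adjusted p 2.2e-24) against Par, and the difference from LM2 was 0.13 (SE 0.29, adjusted p 0.936). Promoter H3K4me3 was 566 and 414 in Par, 707 and 652 in BrM2, and 954 and 689 in LM2, a difference of 0.48 (DESeq2 adjusted p 0.771, or 0.00199 with the replicate block). ADARB2, a brain relative of RNA-editing deaminases, had 9 of 12 higher, 332 to 487 kb away. Its strongest element (chr10:2185457-2190395) had 20.9 and 37.1 in Par, 119 and 169.6 in BrM2, and 62.8 and 77.9 in LM2, a log2 fold change of 2.31 (SE 0.41, adjusted p 4.64e-06) against Par.

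**Figure D4:**
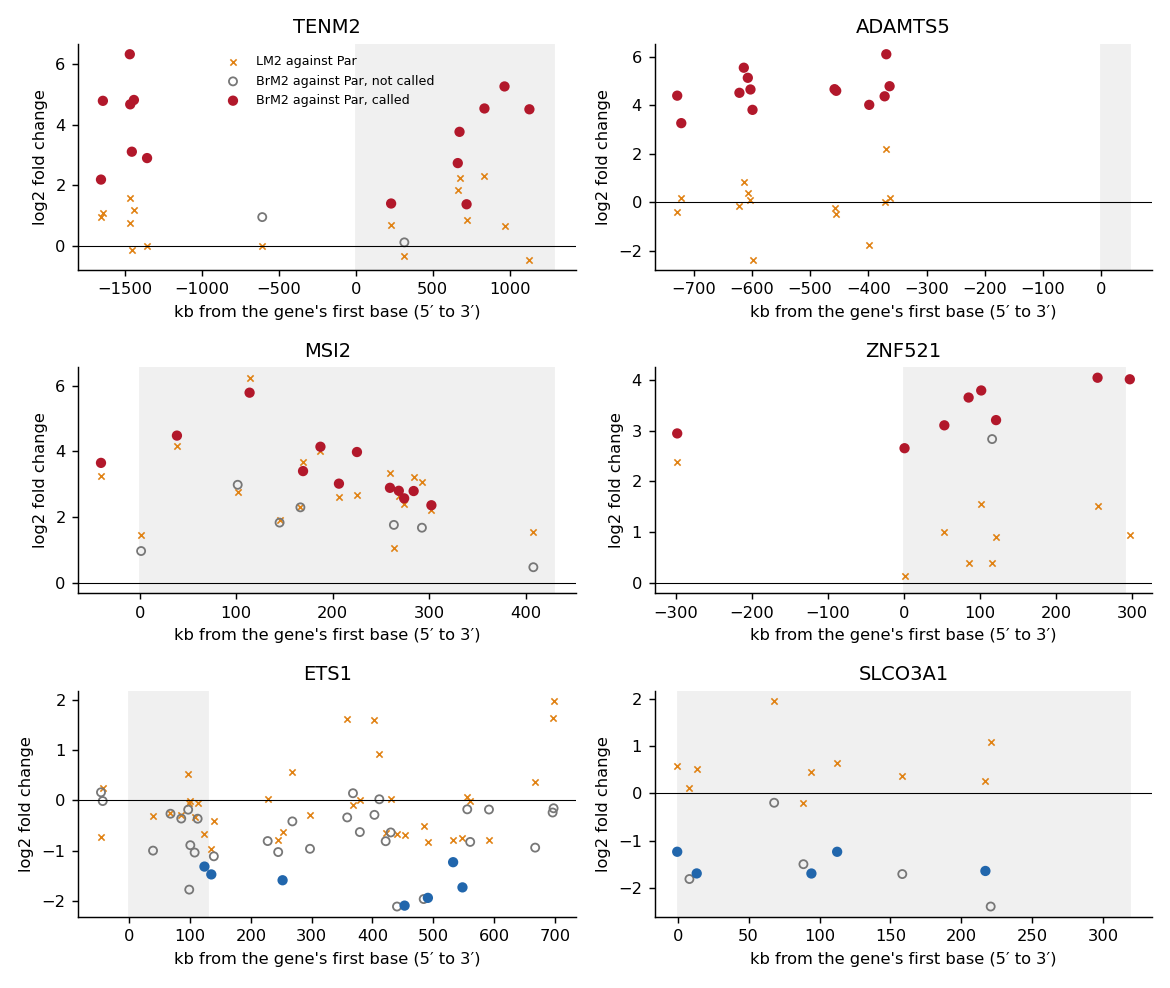
Log2 fold change (vertical axis) of each tested H3K27ac element by its distance in kb from the start of the gene (horizontal axis) at 6 genes, with the gene body shaded. Filled points are called in BrM2 against Par, open points are not, and crosses give LM2 against the same Par libraries. At ADAMTS5 the 13 called points lie between 3.26 and 6.10 and the median cross at 0.01, while at MSI2 the median cross of called elements is 3.23.

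ADAMTS5 encodes a metalloprotease that cleaves aggrecan, and 13 of 14 elements were higher, 363 to 728 kb from the gene. Summed counts were 42.7 and 30.05 in Par, 1013 and 900.3 in BrM2, and 38.7 and 36.5 in LM2. BrM2 alone was high. The strongest (chr21:28939647-28944031) had 6.97 and 8.01 in Par, 189 and 185 in BrM2, and 7.29 and 8.87 in LM2. Its log2 fold change was 4.65 (SE 0.50, adjusted p 1.02e-16) against Par and 4.56 (SE 0.47, adjusted p 3.84e-18) against LM2. The median of its 5 Mb window, which includes elements of ADAMTS5 itself, was 3.41, and 0 of the 13 were called once it was removed. How much of that median came from these elements was not tested. The difference of the strongest from LM2 was then 1.19 (adjusted p 0.47). Promoter H3K4me3 was 0 and 1.54 in Par, 39.5 and 57.3 in BrM2, and 0 and 2.12 in LM2 (DESeq2 adjusted p 0.00108 for BrM2 against Par, a call lost without Par replicate 2).

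GOT2, the mitochondrial aspartate aminotransferase, was the nearest gene to 9 of 11 elements that were higher, although these lay 725 to 1373 kb away. The strongest (chr16:59665068-59670527) had 4.36 and 4.01 in Par, 185 and 133 in BrM2, and 93.7 and 117 in LM2. Both metastatic lines were high, and BrM2 exceeded Par by 5.26 (SE 0.59, adjusted p 2.01e-15). H3K4me3 at the GOT2 promoter was 487 and 334 in Par, 484 and 295 in BrM2, and 563 and 357 in LM2, with overlapping lines and no call. NALF1, a subunit of the NALCN sodium leak channel, had 11 of 22 higher, of which 2 to 5 were called with 1 library left out. Its strongest (chr13:108100922-108105731, intron) had 38.3 and 39.1 in Par, 176 and 172 in BrM2, and 284 and 313 in LM2. LM2 was highest. BrM2 exceeded Par by 2.17 (SE 0.33, adjusted p 1.98e-08), and the difference of BrM2 from LM2 was -0.78 (SE 0.29, adjusted p 0.137), with an adjusted p of 0.0363 with the replicate block.

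The strongest elements of the 11 genes described among the 12 with most elements higher kept their call whichever of the 6 libraries was left out, but their numbers of called elements moved. They were 7 to 12 of 13 at ADAMTS5, 1 to 10 of 12 at SETBP1, 6 to 11 of 12 at MSI2, 4 to 9 of 9 at GOT2, 5 to 8 of 9 at ADARB2, 6 to 8 of 9 at AFF3, 4 to 8 of 8 at ZNF521, 5 to 7 of 8 at CADM2 and 4 to 8 of 8 at ROBO2. The fewest came without BrM2 replicate 1, at some genes tied with another library, except without Par replicate 1 at SETBP1 and without BrM2 replicate 2 at ADARB2. Of the 142 genes with 3 or more elements higher, 114 had a tested promoter H3K4me3 peak, 33 of them higher and 1 lower. At 25 of the 142, 3 or more of the elements also exceeded LM2, and at 67 none did.

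**Figure D5:**
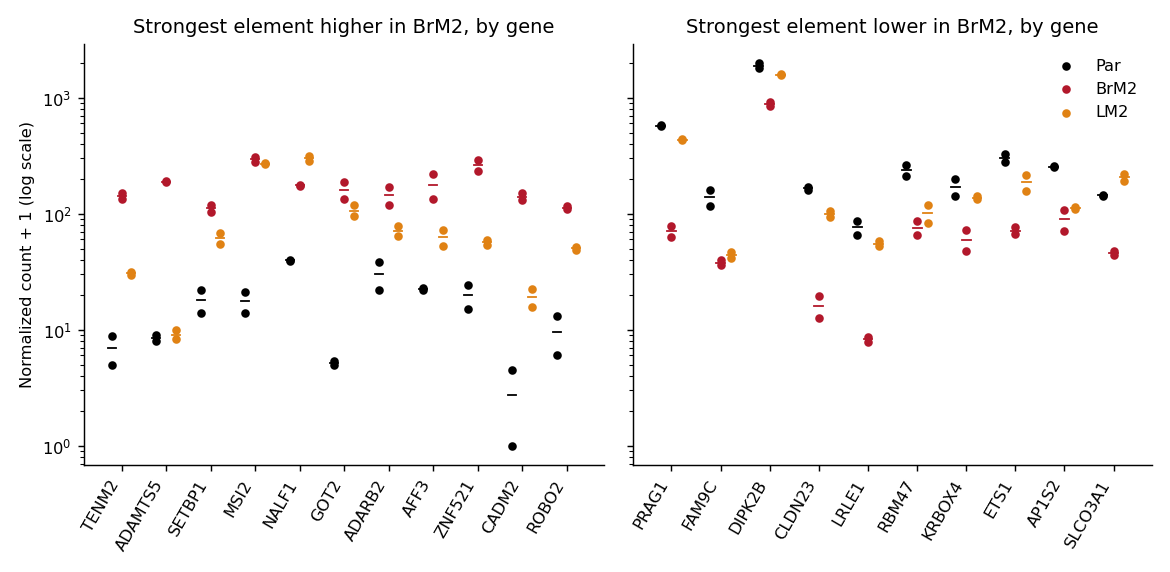
Normalized H3K27ac counts plus 1 (vertical axis, log scale) of the element with the smallest adjusted p at each of 11 genes higher (left) and 10 genes lower (right) in BrM2, 1 point per library with a bar at the mean of 2. The BrM2 points (red) are apart from the Par points (black) at every gene, which the choice by adjusted p nearly requires. LM2 (orange) lies near BrM2 at MSI2 and near Par at ADAMTS5.

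Strong single elements lay at other genes too. The smallest adjusted p belonged to an element over an exon of NFILZ (chr19:8743256-8749229), with 17.4 and 22 in Par, 538 and 569 in BrM2, and 209.8 and 206 in LM2. BrM2 was highest, by 4.82 (SE 0.35, adjusted p 2.98e-39) against Par. An intronic element of PCBP3, a poly(C)-binding protein (chr21:47292366-47308393), had 34.8 and 43.1 in Par, 429.97 and 484 in BrM2, and 634 and 688 in LM2. Both metastatic lines were high, and BrM2 exceeded Par by 3.55 (SE 0.30, adjusted p 3.4e-27). An intronic element of PIEZO2, a mechanically gated cation channel (chr18:10923904-10928955), had 13.1 and 10.02 in Par, 285 and 299 in BrM2, and 139 and 103 in LM2. BrM2 was highest, by 4.65 (SE 0.42, adjusted p 3.05e-24) against Par, and PIEZO2 had 6 of 13 elements higher.

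The shares of gene lists stand against 3.62% of all tested elements higher and 1.67% lower, and none was tested against them. At genes of TGF-beta and BMP signalling 23 of 340 tested elements were higher (6.76%) and 4 lower (1.18%). BMP7, a bone morphogenetic ligand, had 7 of 21, and its strongest had 34 and 31 in Par, 285 and 295 in BrM2, and 290.03 and 288 in LM2. BrM2 and LM2 overlapped and stood above Par. INHBA, an activin subunit, had 4 of 24 higher, with 114 and 84.1 in Par, 241 and 235 in BrM2, and 132 and 108 in LM2 at the one with the smallest adjusted p. There BrM2 alone was high. INHBB, a related subunit, had 2 of 3, FST, the activin antagonist follistatin, 2 of 17, and the inhibitory SMAD6 2 of 21, while the ligand BMP4 had 1 of 30 higher and 2 lower.

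At EGFR, the EGF receptor, 4 of 28 elements were higher although its promoter element was not called. The strongest had 37.5 and 36.1 in Par, 243 and 251 in BrM2, and 155 and 122 in LM2, a log2 fold change of 2.74 (SE 0.34, adjusted p 9.27e-13). BrM2 was highest and Par lowest. NRG1, an ERBB ligand, had 2 of 46 higher. EGF receptors and ligands together had 6 of 104 tested elements higher (5.77%) and 2 lower (1.92%), or 4 lower with the replicate block.

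Axon guidance genes had 19 of 359 tested elements higher (5.29%, against 3.62% of all) and 10 lower (2.79%, against 1.67%). ROBO2 held 8 of those higher and ROBO1 3, in windows with a median of 1.91. The ephrin receptor EPHA7 had 2 of 4. SLIT2, a ligand of ROBO receptors, had 2 of 30 lower, SEMA3C, a semaphorin, 2 of 27, and its receptor-family member PLXNA4 2 of 35. Genes of synaptic release and receptors had 9 of 83 higher (10.8%) and 1 lower, or 2 lower with the block. Among them DLG2, a postsynaptic scaffold, had 3 of 5, RIMS2, of the release machinery, 2 of 4, and DLGAP1 2 of 10.

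Ion channel genes had 9 of 193 tested elements higher (4.66%, close to the 3.62% of all) and 0 lower, or 15 and 5 with the block. Of them 14 were lower at an unadjusted p under 0.05, and edgeR called 4 lower. KCNN2, a calcium-activated potassium channel, had 4 of 7 and KCND2, a voltage-gated one, 2 of 5. Cytokine and chemokine genes had 0 of 51 higher and 0 lower by DESeq2, or 1 higher with the block, and edgeR called 0 and 0. At an unadjusted p under 0.05, 2 were higher and 0 lower. Published brain metastasis genes of this line, a list chosen on RNA of the same line and so no independent evidence, had 3 of 97 higher (3.09%), 1 each at ST6GALNAC5, LTBP1 and PELI1.

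Extracellular matrix genes had 8 of 294 tested elements higher (2.72%) and 8 lower (2.72%), or 14 lower with the block. COL8A1, a short-chain collagen, had 4 of 25 higher, and all 4 also exceeded LM2. The fibrillar collagen genes COL5A1 and COL1A2 had 4 of 20 and 2 of 9 lower. Inhibitors of MAP kinase and receptor signals had 6 of 332 higher (1.81%) and 12 lower (3.61%), or 11 and 20 with the block. DUSP10, a phosphatase of p38 and JNK, had 4 of 51 lower and 1 higher, the caveolin CAV2 4 of 19 lower and the RAS GTPase-activating protein DAB2IP 2 of 23 lower, while LRIG1, an inhibitor of EGF receptors, had 3 of 8 higher.

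Transcription factors of the AP-1, ETS, RUNX, TEAD and SOX families had 18 of 415 tested elements lower (4.34%, against 1.67% of all) and 9 higher (2.17%, against 3.62%). ETS1, the founding ETS factor, had 7 of 48 lower. Summed over its elements, counts were 4921 and 3772 in Par, 2589 and 2533 in BrM2, and 3446 and 3821 in LM2. BrM2 was lowest. The strongest (chr11:128000699-128008531, intergenic, 367 kb away) had 326 and 275 in Par, 75.1 and 65.5 in BrM2, and 215 and 156 in LM2. It fell by 2.09 (SE 0.33, adjusted p 8.15e-08) against Par and by 1.39 (SE 0.33, adjusted p 0.00251) against LM2 on the log2 scale, where 1.22% of all tested elements were lower. With the window median of -0.40 removed, 3 of the 7 were called. Promoter H3K4me3 was 1235 and 863 in Par, 824 and 716 in BrM2, and 1104 and 841 in LM2, a difference of -0.44 (DESeq2 adjusted p 0.814, or 0.00239 with the replicate block).

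RUNX2, a factor of bone, had 5 of 47 elements lower with a median log2 fold change of -1.39. The strongest had 73.2 and 64.1 in Par, 12.7 and 15.4 in BrM2, and 34.2 and 28.6 in LM2. LM2 lay between the others without overlap, and the log2 fold change was -2.32 (SE 0.52, adjusted p 0.000759). RBM47, an RNA-binding protein of splicing and transcript stability, had 7 of 11 lower, 6 of them in the gene. Its strongest (chr4:40672323-40677307) had 209 and 261 in Par, 64.3 and 84.8 in BrM2, and 119 and 81.8 in LM2. BrM2 and LM2 overlapped below Par. It fell by 1.68 (SE 0.35, adjusted p 0.000175) in BrM2, with an adjusted p of 0.106 without BrM2 replicate 1. Promoter H3K4me3 was 268 and 217 in Par, 148 and 93.4 in BrM2, and 188 and 148 in LM2, a difference of -1.02 (DESeq2 adjusted p 0.154, or 6.1e-05 with the block).

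SLCO3A1, an organic anion transporter, had 5 of 13 elements lower, all in the gene. Summed counts were 637 and 680.1 in Par, 214 and 260.3 in BrM2, and 918 and 969.9 in LM2. BrM2 was low and LM2 above Par. The strongest (chr15:92408043-92412732, intron) had 144 and 142 in Par, 42.9 and 46.3 in BrM2, and 219 and 191 in LM2. It fell by 1.69 (SE 0.35, adjusted p 0.000138) against Par, with an adjusted p of 0.0698 without BrM2 replicate 1, and by 2.21 (SE 0.34, adjusted p 1.3e-07) against LM2. All 5 were also lower than in LM2. Promoter H3K4me3 was 919 and 629 in Par, 463 and 391 in BrM2, and 1586 and 938 in LM2, a difference from Par of -0.86 (DESeq2 adjusted p 0.253, or 3.19e-08 with the block).

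PRAG1, CLDN23 and LRLE1 lie near each other on chromosome 8, in a stretch that was lower in BrM2 as a whole. PRAG1, a pseudokinase, had 9 of 16 elements lower, CLDN23, a claudin of tight junctions, 7 of 11, and LRLE1 7 of 11. Summed counts at PRAG1 were 1417 and 1387 in Par, 198 and 154 in BrM2, and 1348 and 1092 in LM2. BrM2 was far below both other lines. The strongest PRAG1 element (chr8:8141252-8157177) had 576 and 568 in Par, 78 and 61.7 in BrM2, and 442 and 428 in LM2, and fell by 3.01 (SE 0.29, adjusted p 3.65e-21) against Par and 2.62 (SE 0.29, adjusted p 2.14e-15) against LM2. The CLDN23 element (chr8:8482246-8489427) had 159 and 170.3 in Par, 18.5 and 11.6 in BrM2, and 92.6 and 103 in LM2, and that of LRLE1 (chr8:8130190-8134514) had 86.2 and 64.1 in Par, 6.82 and 7.71 in BrM2, and 56.7 and 51.3 in LM2. LM2 lay between Par and BrM2 at both.

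Elements within 1 Mb on either side had a median log2 fold change of -2.40 at PRAG1, -2.57 at CLDN23 and -2.47 at LRLE1. Promoter H3K4me3 changed by -3.22 (SE 0.33, adjusted p 6.11e-19) at PRAG1 and by -3.02 (SE 0.43, adjusted p 1.01e-09) at CLDN23. With window medians removed, 2, 1 and 0 elements of the 3 genes were called, and the differences of their strongest elements from LM2 had adjusted p of 0.145, 0.591 and 0.615.

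FAM9C, DIPK2B, KRBOX4 and AP1S2 lie on chromosome X, where elements within 1 Mb had medians between -1.38 and -1.07. FAM9C, a testis-expressed gene, had 9 of 20 elements lower. Its strongest (chrX:13103591-13109348) had 159 and 116 in Par, 35.1 and 38.6 in BrM2, and 45.4 and 40.4 in LM2. BrM2 and LM2 were both low, and BrM2 fell by 1.91 (SE 0.40, adjusted p 0.000192) against Par, with an adjusted p of 0.0757 without Par replicate 1 and 0.0834 without BrM2 replicate 1. AP1S2, a subunit of a clathrin adaptor complex, had 5 of 9 lower. Its promoter element had 249 and 254 in Par, 70.2 and 106 in BrM2, and 112 and 108 in LM2. Here too both metastatic lines were low, and BrM2 fell by 1.54 (SE 0.33, adjusted p 0.000224), with an adjusted p of 0.156 without BrM2 replicate 1.

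DIPK2B, of a family of protein kinase-like proteins, had 8 of 28 elements lower. Its strongest, 47094 bases long and 533 kb from the nearest DIPK2B start, had 1985 and 1797 in Par, 916 and 841 in BrM2, and 1609 and 1555 in LM2. BrM2 was lowest, with LM2 between it and Par. The log2 fold change of BrM2 against Par was -1.10 (SE 0.23, DESeq2 adjusted p 0.000235). KRBOX4, a KRAB domain protein, had 7 of 27. Its strongest, 263 kb from the nearest KRBOX4 start, had 197 and 140.2 in Par, 71.2 and 46.3 in BrM2, and 132 and 142 in LM2. LM2 overlapped Par there. With chromosome medians removed, the strongest elements of DIPK2B and KRBOX4 lost their call (DESeq2 adjusted p 0.103 and 0.0854). The KRBOX4 call was lost without Par replicate 1 (adjusted p 0.171) or BrM2 replicate 2 (0.144). With window medians removed 0 elements were called at each of the 4 genes. With 1 library left out, the elements called were 5 to 9 of 9 at PRAG1, 0 to 9 of 9 at FAM9C, 1 to 7 of 8 at DIPK2B, 2 to 7 of 7 at CLDN23, 1 to 7 of 7 at LRLE1, 0 to 5 of 7 at RBM47, 0 to 5 of 7 at KRBOX4, 2 to 6 of 7 at ETS1, 0 to 4 of 5 at AP1S2 and 0 to 3 of 5 at SLCO3A1. The fewest came without BrM2 replicate 1, at DIPK2B tied with Par replicate 1 and BrM2 replicate 2, except without Par replicate 1 at ETS1 and without Par replicate 1 or BrM2 replicate 2 at KRBOX4. Of the 47 genes with 3 or more elements lower, 36 had a tested promoter H3K4me3 peak, of which 11 were lower and 0 higher.

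Among other elements that fell, an intronic one of ACTR3C, an actin-related protein (chr7:150003617-150011917), had 291 and 489.8 in Par, 35.1 and 54 in BrM2, and 38.1 and 52.2 in LM2. Both metastatic lines were low, and BrM2 fell by 3.17 (SE 0.39, adjusted p 4.79e-13) against Par. An element 28.6 kb from DRD2, the D2 dopamine receptor (chr11:113374690-113379395), had 219.5 and 176 in Par, 28.3 and 32.8 in BrM2, and 114 and 164 in LM2. BrM2 was lowest and LM2 between, and BrM2 fell by 2.72 (SE 0.39, adjusted p 1.99e-09) against Par and 2.20 (SE 0.39, adjusted p 9.46e-06) against LM2. An intronic element of SLC30A10, a manganese exporter, was 22697 bases long (chr1:219952867-219975563) and had 893 and 688 in Par, 228 and 241 in BrM2, and 507 and 454 in LM2. It fell by 1.76 (SE 0.27, adjusted p 3.33e-08), with LM2 again between the others.

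EPHA5 and IRS1 had at least 2 elements in each direction. At EPHA5, an ephrin receptor, 2 intronic elements fell by 1.16 (adjusted p 0.0319) and 1.40 (adjusted p 0.0117), and 2 elements 885 and 893 kb away were higher. The stronger of these had 42.7 and 29 in Par, 192 and 193 in BrM2, and 109.95 and 124 in LM2, a log2 fold change of 2.42 (SE 0.35, adjusted p 6.17e-09), and it alone of the 4 kept its call whichever library was left out. At IRS1, an adaptor of the insulin receptor, the promoter element and 2 elements 315 and 367 kb away were higher, by 0.83 to 0.85. Elements 72.8 and 108 kb away fell by 1.62 and 2.31. The adjusted p of these 5 lay between 0.0228 and 0.0447, and all 5 lost their call when only the 4 BrM2 and Par libraries were fitted (adjusted p 0.051 to 0.067).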

How the data were processed

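H3K27ac and H3K4me3 were profiled by ChIP-seq in Par, LM2 and BrM2, with 2 replicates of each line and mark that the study's methods call biological. Per the labels and the study's methods, the authors aligned reads to hg19 with Bowtie2 2.3.4.3 after Trimmomatic 0.32, called broad peaks with MACS2 2.1.2 on merged reads of each mark, and counted reads extended by 150 bases in these consensus peaks with featureCounts 1.6.0. The deposited values are raw read counts per peak, not normalized. Peaks were called on all lines together, so a peak need not be present in each line.

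From these counts DESeq2 1.42.0 in R 4.3.3 was fitted to all 6 libraries of a mark, with line as the only term (3 residual degrees of freedom), DESeq2's default size factors, fold changes left without shrinkage, and p-values adjusted by Benjamini-Hochberg over all peaks left by independent filtering. Normalized counts are counts divided by size factors. Only the DESeq2 fit of BrM2 against Par was tested on simulated counts with known changes. These had 1 dispersion for all peaks and neither paired replicates nor regional shifts, unlike the data. Peaks went to the protein-coding gene with the nearest GENCODE transcript start, measured from the peak's edge, and 2 kb defined promoters. Named genes were the 12 with most elements higher and the 10 with most lower, the 5 strongest elements in each direction whose normalized counts averaged 50 or more, genes with 2 or more calls in each direction, and list members with 2 or more calls. CDH1, CDH2, EGFR's promoter and the single calls at ST6GALNAC5, LTBP1 and PELI1 were named after their values were seen. The members and lists were chosen with earlier results of these data known. Values of 1 of the 12 genes, and of 2 genes of the fixed lists, are not reported here. Alternatives were TMM factors, edgeR 4.0.16 quasi-likelihood, a replicate block, a filter of 10 counts in 2 libraries, no independent filtering, the 4 BrM2 and Par libraries alone, removal of chromosome or 5 Mb medians, and leaving out each library.

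Replicate numbers come from the sample titles. Deviations of same-numbered libraries from their line means correlated with r = 0.607 between Par and BrM2, 0.407 between Par and LM2 and 0.48 between BrM2 and LM2, so the numbers were taken to pair the libraries. The main fit, with line as its only term, leaves this pairing out. Only the fits with the replicate block include it, and they gave larger counts. Replicates of a line differed beyond sampling noise (chi-square over its degrees of freedom 4.12 in Par and 2.29 in BrM2). PCR reads are not independent molecules, so intervals and floors cover counting error only. With 2 libraries per line an exact permutation test of a single element could not reach the threshold, so calls rest on the spread pooled over lines and elements.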

Additional observations from a re-analysis of the deposited data

Results flagged for a closer look

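The strongest elements of 17 named genes differed between the metastatic lines in the direct test of BrM2 against LM2 (DESeq2, adjusted p under 0.05). There the change against Par was not the same size in both lines. Of all tested elements 2.94% were called in this test. The named elements were chosen by their difference from Par in the same BrM2 libraries, so a larger share among them is not independent evidence. Those of SETBP1, MSI2, NALF1, GOT2, ADARB2, ROBO2, FAM9C, RBM47, AP1S2, PCBP3 and ACTR3C were not called. The difference of BrM2 from LM2 on the log2 scale was 2.24 at TENM2, 4.56 at ADAMTS5, 1.49 at AFF3, 2.23 at ZNF521, 2.92 at CADM2, 1.41 at NFILZ, 1.26 at PIEZO2 and 2.24 at NRXN3, where BrM2 was higher. It was -2.62 at PRAG1, -0.85 at DIPK2B, -2.63 at CLDN23, -2.92 at LRLE1, -1.19 at KRBOX4, -1.39 at ETS1, -2.21 at SLCO3A1, -2.20 at DRD2 and -1.04 at SLC30A10, where BrM2 was lower.

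Of these, the differences at AFF3, DIPK2B, DRD2, ETS1, KRBOX4, LRLE1, NFILZ, PIEZO2, SLC30A10 and TENM2 lost their call without at least 1 library. Without BrM2 replicate 1 the adjusted p was 0.0542 at TENM2, 0.0834 at AFF3, 0.0612 at NFILZ, 0.0602 at DRD2 and 0.228 at LRLE1. At KRBOX4 it was 0.051 with independent filtering off. For these differences, removal of 5 Mb and of chromosome medians was added after the data were seen. With 5 Mb medians removed the adjusted p was 0.47 at ADAMTS5, 0.121 at AFF3, 0.145 at PRAG1, 1 at DIPK2B, 0.591 at CLDN23, 0.615 at LRLE1, 0.977 at KRBOX4, 0.313 at PIEZO2 and 0.192 at SLC30A10, so that these calls were lost. With chromosome medians removed those at DIPK2B, KRBOX4 and PIEZO2 were lost. Those at ZNF521, CADM2, SLCO3A1 and NRXN3 stayed called under each of these alternatives and with each library left out. Causes of these differences were not tested.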

How the results depend on the processing

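Under TMM factors, the count filter and no independent filtering, counts of elements called between BrM2 and Par stayed within 1.5 times. No scaling moved the share of higher calls by over 10 percentage points. edgeR called 4280 elements between BrM2 and Par, 1525 of them lower, 3195 between LM2 and Par and 2419 between BrM2 and LM2, with 3 or more elements higher at 249 genes and lower at 85. With 5 Mb medians removed, 434 elements were lower than in Par, 786 differed from LM2, and 91 and 13 genes had 3 or more. The lower genes numbered 28 with the BrM2 and Par libraries alone and 26 with chromosome medians removed. Genes higher and lower numbered 61 and 30 with elements within 100 kb, 75 and 16 at an adjusted p under 0.01, 334 and 127 with 2 or more elements, and 48 and 12 with 5 or more. In the central 600 bases AP-1 letters stood in 28.6% of elements higher, 28.9% of those lower and 26.9% of all, and RUNX letters in 12.3%, 16.8% and 11.2%.

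With the replicate block DESeq2 called 1462 elements lower than in Par, 2574 between BrM2 and LM2 and 3909 H3K4me3 peaks, and 80 genes had 3 or more elements lower. edgeR with the block called 9892 elements between BrM2 and Par (5393 higher, 4499 lower), 8213 between LM2 and Par, 7803 between BrM2 and LM2 and 7512 H3K4me3 peaks, with 520 and 408 genes. The cause of these larger counts was not tested.

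Leaving out 1 library gave 517 to 1976 elements between BrM2 and Par (446 to 1419 higher, 71 to 557 lower), 358 to 1276 between LM2 and Par, 103 to 1053 between BrM2 and LM2, 247 to 720 H3K4me3 peaks, 24 to 104 genes higher, 3 to 29 lower, and 34 to 70 adhesion elements higher. The fewest came without BrM2 replicate 1, except without LM2 replicate 1 for LM2 against Par and without Par replicate 2 for H3K4me3. A line left with 1 library is assumed to vary like the others. The difference from LM2 at ACTR3C ranged from -0.34 to 0.27 with 1 library left out, above 0 without BrM2 replicate 1 or LM2 replicate 2, and promoter H3K4me3 at GOT2 from -0.46 to 0.26, above 0 without Par replicate 1 or BrM2 replicate 2. With 5 Mb medians removed, promoter H3K4me3 at KRBOX4 turned to 0.0148. The differences from LM2 at ROBO2, DIPK2B and ACTR3C turned to -0.00951, 0.0126 and 0.097. None of these values was called.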
